A study of Mus musculus with 12 samples.

Results

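Hepatocytes carry out most of the metabolic and secretory work of the liver, and they lose part of this identity when they are taken out of the tissue and plated. The nuclei of hepatocytes in liver tissue were compared with the nuclei of hepatocytes after 24 hours of culture, in order to see which genes of these cells changed, which stress genes changed in culture but not during isolation, and which genes kept their level. Liver hepatocytes were the nuclei that the authors' annotation names hepatocytes, without cluster 19, and cultured hepatocytes were the cultured nuclei of clusters 0, 1, 14 and 17. These choices gave 13927 of the 20024 annotated nuclei of the Liver samples and 14760 of the 18394 nuclei of the Primary Hepatocytes samples, 28687 nuclei of 53467 in the series.

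The study used wild-type male mice of 10 to 12 weeks of age on chow, a C57BL6J strain per the labels and C57BL/6NTac per the study's methods. Each of 8 mice gave 3 samples, taken under the anaesthetic avertin. Liver was a piece of the median lobe, taken after the blood had been flushed out with an EGTA buffer and before collagenase was applied. Cell Suspension was the digested liver after low-speed spins that enrich hepatocytes, frozen without culture. Primary Hepatocytes were plated on collagen in MEM-199 medium with serum, kept overnight with little serum, insulin and dexamethasone (a synthetic glucocorticoid), and lifted with trypsin-EDTA. The culture therefore differed from the tissue in enzyme treatment, plating, medium, hormones and time, which cannot be told apart here. Cell Suspension hepatocytes (12420 of 15049 nuclei) serve as the state directly after isolation. They were taken from the authors' annotation, without the cluster left out of Liver. Most of them lay in clusters that held no chosen Liver nuclei, the largest being clusters 2 (3895 nuclei), 4 (2953), 7 (2334) and 10 (2010).

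A differentiated hepatocyte is held in its state by a network of transcription factors, with HNF4A at its centre, that drives genes for plasma proteins, nitrogen disposal, glucose release, bile acid synthesis and drug metabolism. On plating, hepatocytes attach, spread and build actin fibres, and stress pathways such as those of AP-1, NRF2 (oxidants and electrophiles), p53 (DNA damage) and HIF (low oxygen) can be engaged. RNA in the nucleus is rich in transcripts that still hold introns, so its level follows transcription more closely than that of whole-cell RNA does.

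Droplet libraries with unique molecular identifiers (UMIs) were made from 6 pools of 4 samples each, told apart by hashtag antibodies. The UMIs of the chosen nuclei summed to between 6389167 and 28963915 per Liver sample, between 9539460 and 20243064 per Primary Hepatocytes sample and between 2042585 and 17374626 per Cell Suspension sample. Of the barcodes of these nuclei, 209 were found in more than 1 pool. Only pools 2 and 5 held both Liver and Primary Hepatocytes, so values within these pools are given for the main results. The hepatocyte label was checked against 10 hepatocyte markers, in CPM (UMI counts scaled to 1 fixed total per sample). They summed to between 11746 and 18882 CPM in Liver and between 2064 and 6130 CPM in Primary Hepatocytes. No marker was at 0 in either, which held for every marker list and so does not set hepatocytes apart. In cultured hepatocytes and cultured endothelial nuclei, Alb was at 1349 and 1317 CPM, Cps1 at 1217 and 663 and Hnf4a at 205 and 60.2. Pck1 (33.3 and 124), Cyp2e1 (40.2 and 129) and Tat (69.7 and 107) were higher in the endothelial nuclei. In Primary Hepatocytes the endothelial markers summed to between 92.9 and 161 CPM, against 34.9 to 57.3 in Liver. The stellate markers summed to between 76.9 and 654 CPM against 19.9 to 44.0, and the leukocyte markers to between 24.8 and 41.2 against 6.10 to 15.4. In the test of single genes described below, 1 of 7 leukocyte markers rose, 2 fell and 4 did not pass (median log2 fold change -0.68). Of 8 stellate markers 2 rose and 6 did not pass (median -0.19). Most members of these 2 lists thus did not share the higher sum. Of 10 endothelial markers 5 rose, 2 fell and 3 did not pass (median 0.37). Kupffer and biliary markers overlapped between the types (9.47 to 19.1 against 8.01 to 18.1, and 125 to 190 against 129 to 194). Reln alone, one of the stellate markers, lay between 16.3 and 40.9 CPM in Liver and between 28.8 and 493 CPM in Primary Hepatocytes. The part of other cell types' RNA in the results was not tested. A sum over nuclei does not tell fewer expressing nuclei from less RNA in each.

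Most tested genes differed between culture and liver. Of 26425 genes with at least 10 UMIs over all samples, 14554 (55.1%) passed an adjusted p of 0.05 between Primary Hepatocytes and Liver. Of all tested genes, 28.2% rose (7458) and 26.9% fell (7096), and the median log2 fold change was 0.07. These shares are the background against which the counts of each gene list are read. Within pools 2 and 5 alone, 10736 of 22620 genes passed, of which 5285 rose. Between Cell Suspension and Liver 22.3% of genes passed (5893), 8.20% rising (2167) and 14.1% falling (3726). Both comparisons use the same Liver samples. Fold changes are given on the log2 scale as Primary Hepatocytes over Liver unless another pair is named, and levels as TMM-scaled CPM.

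Where the 8 Liver and 8 Primary Hepatocytes samples did not overlap and the higher type reached 50 CPM, the largest rises included genes of glycolysis, the cell cortex and growth arrest. Anxa2 (ENSMUSG00000032231, chromosome 9, 69453620 to 69491795), a calcium-dependent membrane-binding annexin, lay between 0.44 and 2.40 CPM in Liver (median 1.04) and between 118 and 183 CPM in Primary Hepatocytes (median 142) (log2 fold change 6.86, 95% interval 6.26 to 7.45, edgeR adjusted p = 2.4e-17). Pkm (ENSMUSG00000032294, chromosome 9, 59656368 to 59679375), the pyruvate kinase of muscle and proliferating cells, lay between 0.489 and 4.93 CPM in Liver (median 0.682) and between 169 and 281 CPM in Primary Hepatocytes (median 222) (log2 fold change 7.21, 95% interval 6.41 to 8.02, edgeR adjusted p = 1.8e-14). Cdkn1a, the cell cycle inhibitor p21, lay between 0.243 and 2.74 CPM in Liver (median 0.842) and between 72.1 and 119 CPM in Primary Hepatocytes (median 85.7) (log2 fold change 6.32, 95% interval 5.66 to 6.97, edgeR adjusted p = 6.4e-16). Every cultured sample of these 3 genes was above every Liver sample. The others included Sprr1a, a cornified envelope protein induced by injury (7.29). It was at 0 CPM in all Liver samples but those of mice 4 and 5 (0.835 and 1.39). Also among the 10 were Cox4i2, a hypoxia-related subunit of cytochrome oxidase (7.27), the transcription factor Creb5 (6.89), the annexin Anxa3 (6.24), Ndrg1, which responds to hypoxia (6.43), and the platelet phosphofructokinase Pfkp (6.22). Cox4i2 was nearly all unspliced, with 0 spliced and 81 unspliced UMIs in Liver and 56 and 14414 in culture. Unspliced reads can come from overlapping genes, and their part in this rise was not tested. All 10 were also called higher in Cell Suspension (background 8.20%), with smaller fold changes there, such as 1.87 for Anxa2 and 2.55 for Pkm. This call went with the pools: 6 of the 8 Cell Suspension samples shared a pool with cultured samples, and for 8 of the 10 genes each of these 6 was above both others. Pkm was at 7.79 to 17.2 CPM in the 6 and at 1.43 and 1.59 in the other 2, and Anxa2 at 3.81 to 8.48 in the 6 and at 0.911 and 1.59 in the other 2. The share of all genes with this separation was not counted. In pools 1 and 6 alone, which held no culture (6 Liver and 2 Cell Suspension samples), 1 of the 10 was called and Sprr1a had too few counts for the test, with fold changes of 1.15 for Pkm and 0.43 for Anxa2. The size of the largest rises depended on the samples used: within pools 2 and 5 the value was 6.01 for Anxa2, 6.04 for Pkm and 5.18 for Cdkn1a.

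Among the 10 largest falls were genes of bile acid synthesis, uptake and drug metabolism, and none of the 10 was called between Cell Suspension and Liver. With the mouse as a block, 3 were called lower in Cell Suspension, each lower in 8 of 8 mice: Keg1 (-1.38), Mup9 (-0.48) and Haao (-0.46). Cyp7a1 (ENSMUSG00000028240, chromosome 4, 6265612 to 6275633), the rate-limiting enzyme of bile acid synthesis, lay between 64.7 and 340.2 CPM in Liver (median 190.2) and between 0.53 and 3.21 CPM in Primary Hepatocytes (median 0.92) (log2 fold change -7.28, 95% interval -8.12 to -6.45, edgeR adjusted p = 3.8e-14). Slco1b2 (ENSMUSG00000030236, chromosome 6, 141629518 to 141686646), an uptake carrier of bile acids and drugs, lay between 2181 and 3168 CPM in Liver (median 2746) and between 14.5 and 53 CPM in Primary Hepatocytes (median 19.4) (log2 fold change -6.63, 95% interval -7.08 to -6.17, edgeR adjusted p = 2.9e-18). Cyp3a25, a drug-metabolizing cytochrome P450, lay between 1299.7 and 5149 CPM in Liver (median 4165) and between 23.1 and 61.5 CPM in Primary Hepatocytes (median 38.6) (log2 fold change -6.55, 95% interval -7.18 to -5.92, edgeR adjusted p = 6.2e-15). The highest cultured sample of each lay far below the lowest Liver sample. The others were the major urinary proteins Mup10 (-7.61) and Mup9 (-6.91), whose reads can be shared with near-identical family members, the sulfotransferase Sult2a8 (-6.92), Cyp2c54 (-6.62), the tryptophan catabolic enzyme Haao (-6.56), the chemokine Cxcl12 (-6.47) and Keg1 (-6.46). Keg1 varied widely between mice, from 44.1 to 1118 CPM in Liver and from 0.543 to 13.6 CPM in culture. Within pools 2 and 5 the value was -5.81 for Cyp7a1, -5.96 for Slco1b2 and -5.76 for Cyp3a25.

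**Figure D1:**
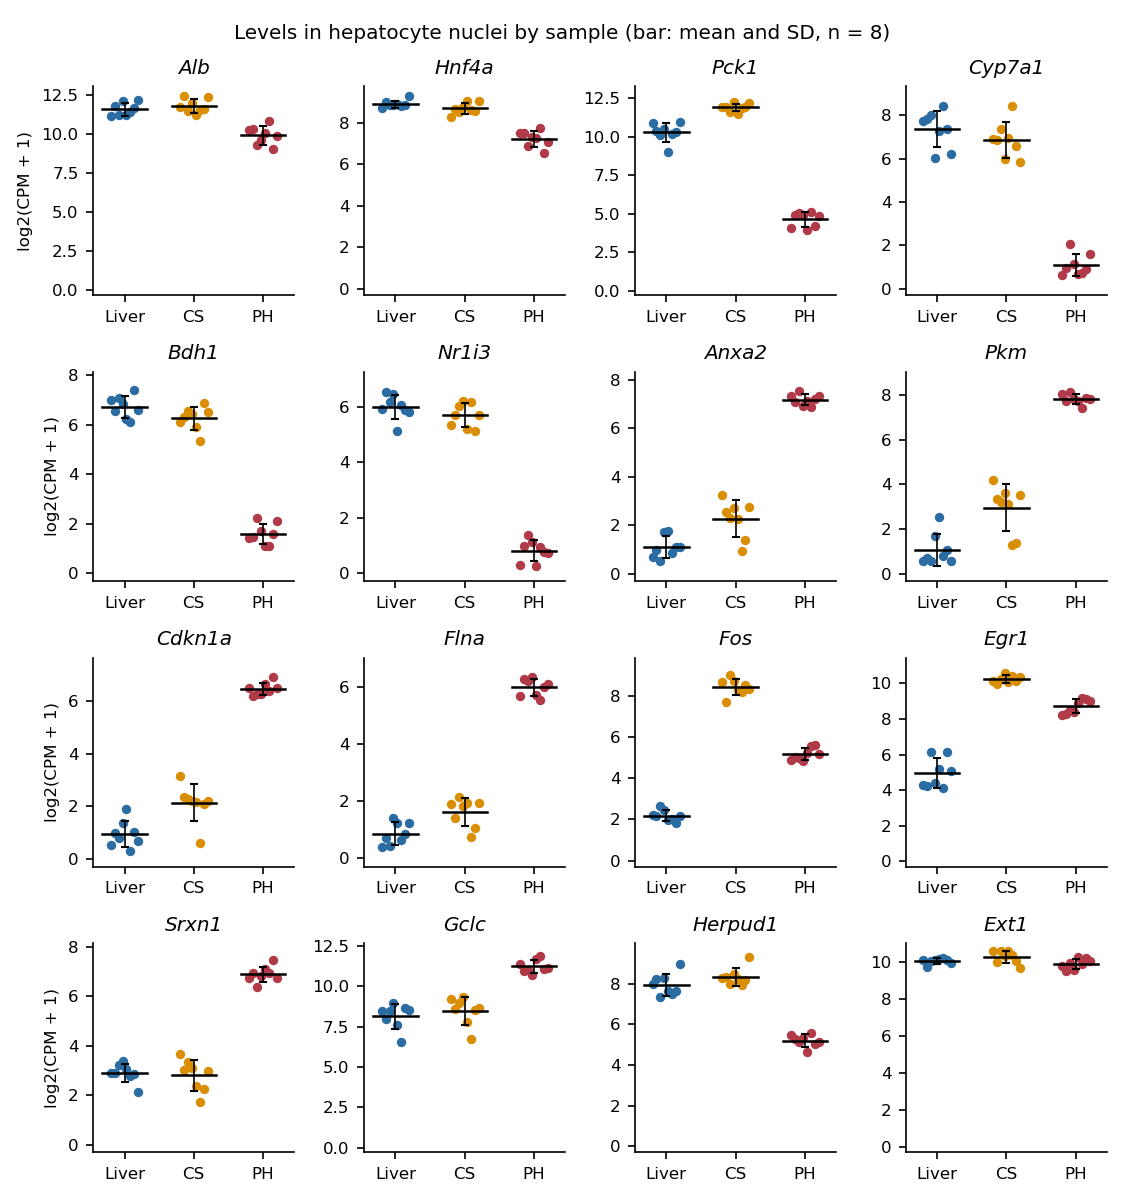
Levels of 16 genes in hepatocyte nuclei, as log2(CPM + 1), with 1 point per sample and bars for the mean and SD of 8 samples of Liver (blue), Cell Suspension (CS, orange) and Primary Hepatocytes (PH, red). Cyp7a1 was lowest in culture, Fos and Egr1 were highest in Cell Suspension, Srxn1 and Gclc were higher only in culture, and Ext1 overlapped across the 3 types.

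How much of a fallen gene was left in culture differed between pools. Of the 8 Primary Hepatocytes samples, 3 shared a pool with Liver samples and 5 did not. For 6 of the 10 genes with the largest fall, each of the 3 samples was above each of the 5, and the ratio of the means over the 10 genes had a median of 2.22 (1.0 to 11.4). For the 10 genes with the largest rise no such separation was seen among cultured samples, and the median ratio was 1.18 (0.87 to 1.47). Their low levels in Liver did separate by pool: for all 10 genes, both Liver samples that shared a pool with culture, those of mice 4 and 5, were above the other 6. Pkm was at 2.28 and 4.93 CPM in these and at most 1.08 in the others, and Creb5 at 9.42 and 13.5 against at most 4.38. Separations by pool were not counted over all genes, in culture or in Liver. Sult2a8 was at 34.8 to 48.7 CPM, without TMM scaling, in the 3 samples and at 10.2 to 16.7 in the 5, against a pooled level of 1899.5 in Liver. Slco1b2 was at 52.5 to 71.0 in the 3 and at 18.2 to 26.4 in the 5. In near-empty droplets, those of at most 100 UMIs, Sult2a8 was at 1560.0 CPM in pools 1 and 6, which held no cultured samples, and at 578 in pools 3 and 4, which held no Liver. Pkm, in contrast, was at 9.17 CPM in the near-empty droplets of pools 1 and 6 and at 235 in those of pools 3 and 4. Cultured endothelial nuclei, which are not expected to express Sult2a8 or Slco1b2, held 87.5 CPM of the former and 161 of the latter, above the 23.4 and 37.5 of the cultured hepatocytes. For the other 8 genes, too, the level in cultured endothelial nuclei was above that in cultured hepatocytes. Among the 10 largest rises, Pkm was at 303 CPM in cultured hepatocytes and at 505 in cultured endothelial nuclei. Ndrg1 (497 and 691) and Pfkp (142 and 165) were also higher in the endothelial nuclei, and the rest of the 10 were lower. The part of endothelial RNA in the rises was not tested. The part of free RNA in these levels, in culture, Liver and Cell Suspension, was not tested.

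**Figure D2:**
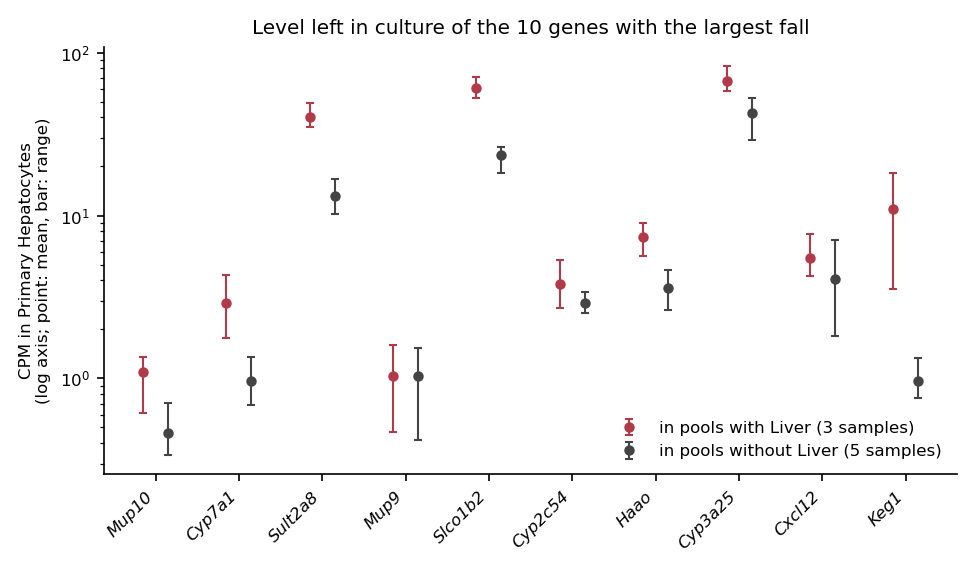
Level left in Primary Hepatocytes of the 10 genes with the largest fall, in CPM without TMM scaling on a log axis, for the 3 samples whose pools also held Liver (red) and the 5 whose pools did not (grey). Points are means and bars ranges. For 6 genes the ranges do not overlap, the widest gap being that of Keg1.

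The lists of hepatocyte functions fell nearly as a whole. All 30 genes of the urea cycle and amino acid breakdown fell (median log2 fold change -3.96), as did all 16 genes of liver glucose handling (-3.24) and all 25 of fatty acid and cholesterol synthesis (-2.0). Of 29 secreted plasma proteins 27 fell and 1 rose (-1.98), of 22 genes of bile acid synthesis and transport 20 fell and 1 rose (-3.59), and of 29 cytochromes P450 23 fell and 1 rose (-4.25). Of 24 genes of fatty acid oxidation and fasting 22 fell and 1 rose (-2.31). The background is a fall in 26.9% of all genes.

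Urea and amino acid genes included the most abundant transcript of the group, Cps1, which makes carbamoyl phosphate for the urea cycle. Cps1 lay between 3611 and 8629 CPM in Liver (median 5276) and between 353 and 1871 CPM in Primary Hepatocytes (median 770.4) (fold change -2.63), without overlap. In comparison, Otc, the next enzyme of the cycle, lay between 372 and 623 CPM in Liver (median 525) and between 5.76 and 16 CPM in Primary Hepatocytes (median 6.16), a fold change of -5.88. Hgd, of tyrosine breakdown, had a fold change of -5.76. Uroc1, of histidine breakdown and listed with the periportal genes, had -5.14.

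Liver genes of glucose handling fell and general glycolytic isoforms rose. Pck1, the gluconeogenic enzyme that makes phosphoenolpyruvate, lay between 515 and 1972 CPM in Liver (median 1301), between 2892 and 4818 CPM in Cell Suspension (median 3862) and between 14.1 and 33.0 CPM in Primary Hepatocytes (median 28.1). It was thus higher in every Cell Suspension sample than in any Liver sample (1.53) and then lower in every cultured sample (-5.75 against Liver). Gys2, the liver glycogen synthase, had 0.80 in Cell Suspension, a call lost without mouse 1 (0.74), and -5.61 in culture. The liver glucose carrier Slc2a2 lay between 181 and 343 CPM in Liver (median 304) and between 3.79 and 17.3 CPM in Primary Hepatocytes (median 8.02), and the general carrier Slc2a1 lay between 9.03 and 19.4 CPM in Liver (median 14.1) and between 66.0 and 92.8 CPM in Primary Hepatocytes (median 75.3). The former fell (-4.89) and the latter rose (2.44), each without overlap. Of 16 glycolytic genes or isoforms of other tissues 13 rose and none fell (median 1.63, against a rise in 28.2% of all genes), Pkm and Pfkp most.

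In fat and ketone metabolism Bdh1, which interconverts ketone bodies, lay between 67.5 and 168 CPM in Liver (median 105) and between 1.14 and 3.68 CPM in Primary Hepatocytes (median 1.9), without overlap (log2 fold change -5.71, 95% interval -6.19 to -5.23, edgeR adjusted p = 2.4e-17). Pdk4, a fasting-induced kinase that restrains glucose oxidation, was the 1 that rose. It lay between 0.718 and 15.7 CPM in Liver (median 3.52), between 7.67 and 251 CPM in Cell Suspension (median 32.5) and between 16.6 and 41.4 CPM in Primary Hepatocytes (median 25.2). Culture was above Liver without overlap (2.10) and overlapped Cell Suspension, above it in mice 2, 6 and 8 and below it in the other 5. The call against Liver was lost with pool as a covariate (1.22) and in cultured cluster 0 alone (1.05). Among lipid synthesis genes, Thrsp, a regulator of lipogenesis (-5.24), Elovl6, a fatty acid elongase (-3.37), and Mlxipl, which encodes the carbohydrate-responsive factor ChREBP (-1.95), were among those that fell.

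Among plasma proteins, Alb (albumin) lay between 2220.3 and 4468 CPM in Liver (median 2898) and between 509.6 and 1771 CPM in Primary Hepatocytes (median 998) (log2 fold change -1.62, 95% interval -2.08 to -1.17, edgeR adjusted p = 3.8e-07), the 2 groups not overlapping. Plg (plasminogen, -5.91) and C8a, of the complement attack complex (-5.17), fell further. Hpx (hemopexin, a heme-binding acute phase protein) was the 1 that rose (1.07), with overlapping samples and a larger rise in Cell Suspension (1.65), and its rise in culture was not called with pool as a covariate (0.35). Among cytochromes P450, Cyp2b10, an inducible target of the nuclear receptor CAR, was the 1 that rose. It lay between 0.304 and 2.22 CPM in Liver (median 0.928) and between 13.0 and 61.2 CPM in Primary Hepatocytes (median 31.4), without overlap (fold change 4.91). The CAR gene itself, Nr1i3, lay between 34.3 and 94.0 CPM in Liver (median 62.9) and between 0.168 and 1.57 CPM in Primary Hepatocytes (median 0.798), and fell (-6.46). Abcc4, a basolateral export pump, was the 1 bile acid gene that rose (1.92). Without TMM scaling Abcc4 was at 31.6 CPM in cultured hepatocytes and at 125 in cultured endothelial nuclei, whose part in the rise was not tested. Reads of P450 family members can be shared between near-identical genes.

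Of 30 liver transcription factors and nuclear receptors 28 fell and 1 rose (median -2.57). Hnf4a lay between 410.2 and 614 CPM in Liver (median 466), between 306 and 534 CPM in Cell Suspension (median 394) and between 93.3 and 214 CPM in Primary Hepatocytes (median 153) (log2 fold change -1.64, 95% interval -1.94 to -1.35, edgeR adjusted p = 4.8e-11), so each cultured sample was below each Liver and Cell Suspension sample. Ppara, the fatty acid receptor and the most abundant of the list, fell (-3.42), and so did Nr0b2, a bile acid-induced repressor (-5.32). Gata6 rose (0.79) with overlapping samples, and this call was lost with pool as a covariate (0.62). Zhx2, a repressor of fetal genes in the adult liver, was called with the smallest fall (-0.24), its interval within 0.5 of no change, and the call was lost under RLE scaling (-0.14) and when mouse 1, 2, 4 or 6 was left out.

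Zonal genes fell from both ends of the liver lobule. Of 18 pericentral genes 17 fell (median -3.89), Cyp2e1 among them (-5.55), and of 18 periportal genes 15 fell and 1 rose (median -3.19). The amino acid carrier Slc7a2 was the most abundant periportal gene and fell by 2.65. Apoa4, of lipoproteins, was the 1 that rose, with overlapping samples (1.46, and 2.04 already in Cell Suspension), and this call was lost with pool as a covariate (0.95). Hsd17b13, a lipid droplet enzyme, ended where it started: it lay between 141 and 193 CPM in Liver (median 149), between 228 and 313 CPM in Cell Suspension (median 268) and between 67.3 and 218 CPM in Primary Hepatocytes (median 156), raised in Cell Suspension (0.75) and with -0.06 (95% interval -0.39 to 0.26) in culture.

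Genes of shape, adhesion and growth rose. Of 38 genes of the actin cytoskeleton and adhesion 33 rose and 2 fell (median 1.97). Flna (filamin A, an actin crosslinker) lay between 0.316 and 1.67 CPM in Liver (median 0.723) and between 45.3 and 80.4 CPM in Primary Hepatocytes (median 64.7) (log2 fold change 6.17, 95% interval 5.63 to 6.71, edgeR adjusted p = 6.4e-18), without overlap. Of 24 targets and members of the YAP and SRF pathways 16 rose and 3 fell (median 0.81). The matrix-associated target Ccn2, with 26 UMIs over all Liver samples and 3485 in culture, lay between 0 and 0.632 CPM in Liver (median 0.1) and between 18.0 and 30.2 CPM in Primary Hepatocytes (median 23.7) (6.81), Ankrd1 had 6.63, and the DNA-binding partner Tead1 had 2.48, whereas Yap1 itself fell slightly (-0.35, with overlap) and the kinase gene Nuak2 fell by 3.71. Of 30 cell cycle genes 18 rose and 1, Cdk2 (-0.68), fell (median 0.85), with Mcm6, of the replicative helicase, at 3.31 and Mybl1 at 3.83. Of 22 fetal, progenitor and biliary genes 11 rose and 4 fell (median 0.82). Among them, Sox4 (4.77) and Hmga2 (3.09), transcriptional regulators of progenitor cells, rose without overlap. Without TMM scaling they were at 11.3 and 26.4 CPM in cultured hepatocytes and at 190.0 and 324 in cultured endothelial nuclei, and the part of endothelial RNA in the rise was not tested. Afp, the fetal counterpart of albumin, lay between 2.68 and 6.21 CPM in Liver (median 5.31) and between 0.392 and 1.28 CPM in Primary Hepatocytes (median 0.757), a fall without overlap (-2.60).

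**Figure D3:**
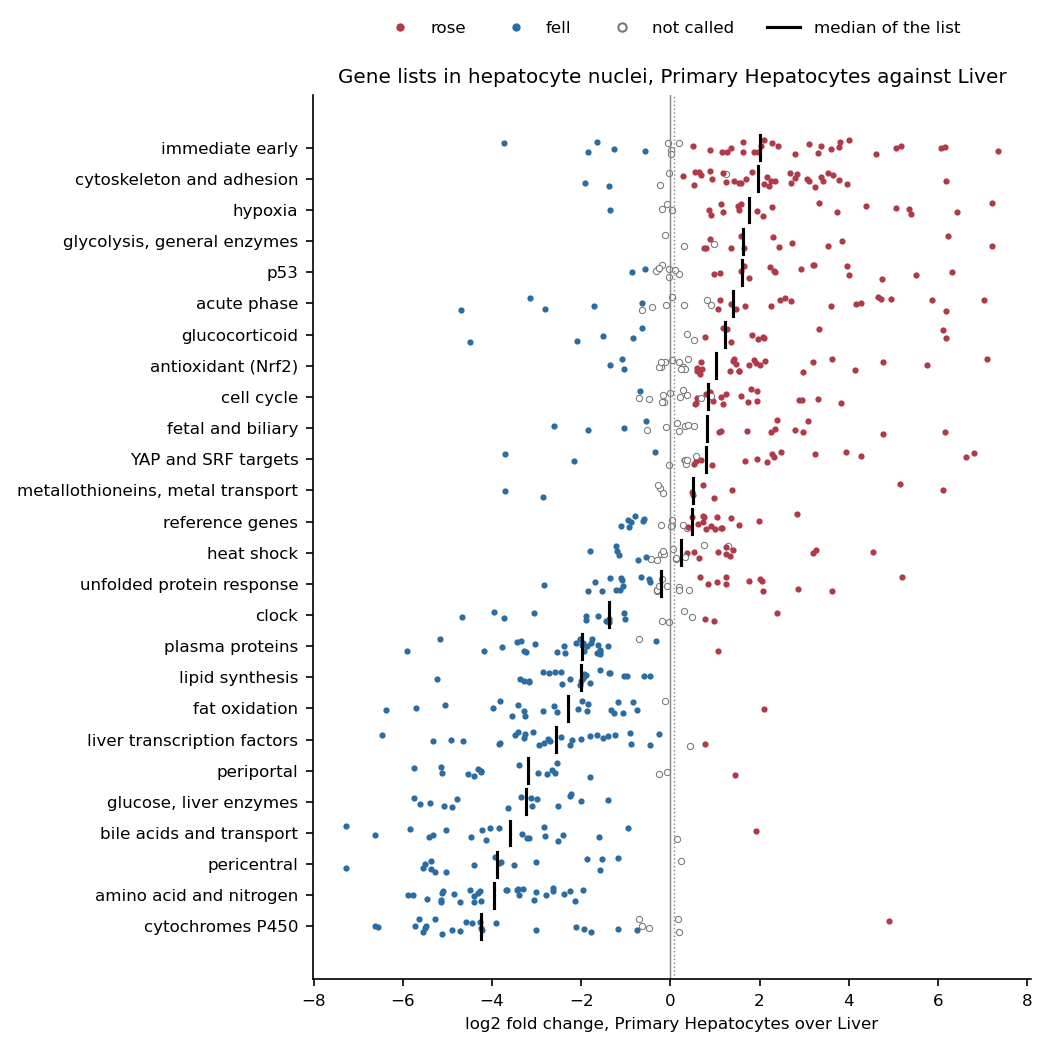
Log2 fold change of Primary Hepatocytes over Liver for each tested gene of 26 gene lists, with rises in red, falls in blue, genes that did not pass in white, a black bar at each list's median and a dotted line at the median of all genes (0.07). The medians of liver function lists lie left of 0, that of cytochromes P450 at -4.25, and those of adhesion (1.97) and general glycolysis (1.63) to the right.

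The medium held dexamethasone, and targets of the glucocorticoid receptor were split. Of 18 targets 11 rose and 5 fell (median 1.22). In Cell Suspension, before this medium, 10 had risen and none had fallen (median 1.06). The metallothionein Mt2 (6.11, and 4.50 in Cell Suspension) and Lcn2 (lipocalin 2, 6.17 and 2.91) rose most in culture, and both also stand in stress lists. Neither was called in Cell Suspension in pools 1 and 6 alone (2.83 and 1.41). Without TMM scaling Mt2 was at 213 CPM in cultured hepatocytes and at 402 in near-empty droplets of pools 3 and 4, and Lcn2 at 232.5 and 392. The part of free RNA in these levels was not tested. Without mouse 5 the Cell Suspension value of Lcn2 was 4.03. Tat, the tyrosine aminotransferase, lay between 226 and 1900.2 CPM in Liver (median 1188) and between 24.4 and 81.0 CPM in Primary Hepatocytes (median 48) (-4.48). Tsc22d3, which encodes the glucocorticoid-induced protein GILZ, had -2.09, with Liver of mouse 8 at 605 CPM and the next highest Liver sample at 216. Of 19 clock and clock output genes 12 fell and 3 rose (median -1.36). The output factors Hlf (-4.68) and Dbp (-3.96) fell most, Npas2, an activator that can replace CLOCK, rose (2.39), and Cry1 rose with overlapping samples (0.97), a call lost with pool as a covariate (0.71). The time of day at which samples were taken was not analysed here.

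The stress lists together held 221 tested genes, of which 166 were called between Primary Hepatocytes and Liver (129 rose and 37 fell, median 1.06). Of the 221, 89 were called against Liver in both Cell Suspension and culture, 72 in the same and 17 in the opposite direction, and 22 were called in Cell Suspension only. A further 33 were called in neither, 50 met the rule for a change in culture only, and the other 27 were called in culture without meeting it. Both comparisons use the same Liver samples. Of the 100 that rose in Cell Suspension, 44 were called in pools 1 and 6 alone, which held no culture, against a rise in 2.64% of all genes there, 53 were not called and 3 had too few counts for the test, with 2 Cell Suspension samples left. In 29 of the 100, each of the 6 Cell Suspension samples that shared a pool with culture was above both others. How many of all genes show this separation was not counted. The 2 others, of mice 6 and 7, also had the lowest median UMIs per nucleus among Cell Suspension samples (2795.5 and 1904). The part of free RNA in these rises was not tested.

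Most immediate early genes rose before culture. Of 36 tested, 32 rose in Cell Suspension (median 2.45) and 27 rose and 5 fell in culture (median 2.00). Of the 32 that rose in Cell Suspension, 19 were lower again in culture than in Cell Suspension, 26 were still above Liver and 4 were below it. Fos, a subunit of AP-1, lay between 2.60 and 5.37 CPM in Liver (median 3.49), between 208 and 522 CPM in Cell Suspension (median 353) and between 28.2 and 47.9 CPM in Primary Hepatocytes (median 33.6). Atf3, a stress-induced partner, had fold changes of 7.39 in Cell Suspension and 3.79 in culture, Jun 5.21 and 1.63, and Egr1 5.10 and 3.60. These 4 peaked in Cell Suspension, each with no overlap between the 3 sample types, and were called in pools 1 and 6 alone (5.06 for Egr1 to 6.92 for Atf3), as were 21 of the 32. Fosl1, the AP-1 subunit FRA1, went the other way, at 0.26, 1.06 and 2.46 CPM (lowest, median, highest) in Cell Suspension and 24.1, 42.2 and 73.2 CPM in culture (fold changes 2.43 and 7.36), as did Klf6 (2.01 and 6.16). Klf10, induced by TGF-beta, rose in Cell Suspension (1.39) and fell in culture (-3.73). In pools 1 and 6 alone Fosl1 (0.72), Klf6 (0.88) and Klf10 (1.12) were not called in Cell Suspension. Every cultured sample shared a pool with Cell Suspension samples. Without TMM scaling Fos was at 47.6 CPM in cultured hepatocytes and at 110 in near-empty droplets of pools 3 and 4. Atf3 (123 and 290), Jun (228 and 428) and Egr1 (572 and 629) were also higher in these droplets, Fosl1 (60.1 and 35.5) and Klf6 (591 and 358) lower. The part of free RNA in the levels in culture was not tested.

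Genes of the other stress lists were also called in Cell Suspension. Of 28 heat shock chaperones 11 rose and 1 fell in Cell Suspension, and 11 rose in culture, where 6 fell (median 0.23). The small chaperone Hspb1 (2.99 and 4.54) and the inducible HSP90 gene Hsp90aa1 (2.30 and 3.20) rose in both. Hspa1a, an inducible HSP70 gene whose reads can be shared with its copy Hspa1b, was called in culture (3.27), but 1 sample held 10.3 CPM and the other 7 at most 2.03, and without that mouse, number 6, the value was 1.37 and not called. Of 30 acute phase genes 17 rose in Cell Suspension, and in culture 18 rose and 5 fell (median 1.41), with Saa1 at 2.53 and 4.27, the chemokine Ccl2 at 7.04 in culture (9.42 without mouse 5, with 18 UMIs over all Liver samples and 5 of these at 0) and the copper carrier Cp at 2.45. Of 12 metallothioneins and metal transporters 3 rose and 3 fell in Cell Suspension (median -0.08), and in culture 7 rose and 2 fell (median 0.50), Mt1 with 4.62 in Cell Suspension and 5.15 in culture. Ccl2 was at 26.1 CPM, without TMM scaling, in cultured hepatocytes and at 106 in cultured endothelial nuclei, whose part in the rise was not tested. In pools 1 and 6 alone Saa1 (1.23) and Mt1 (2.81) were not called in Cell Suspension. Without TMM scaling Saa1 was at 163 CPM in cultured hepatocytes and at 259 in near-empty droplets of pools 3 and 4, and Mt1 at 732 and 1342. Cp (2280 and 1477), Ccl2 (26.1 and 23.2) and Hspb1 (40.3 and 29.1) were among those lower in these droplets. The part of free RNA in these levels was not tested. The heme-degrading enzyme Hmox1 had 3.36 and then 5.76. Hspa5, the main chaperone of the endoplasmic reticulum (BiP), rose in both (2.30 and 1.24), with overlapping samples. Cell Suspension of mouse 8 held 1738 CPM and the other 7 between 115 and 369.8, and without mouse 8 the value in Cell Suspension was 1.56, still called.

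Stress genes that changed in culture only were those called for Primary Hepatocytes against both Liver and Cell Suspension in 1 direction and not called for Cell Suspension against Liver, with the 95% interval of that comparison within 1 log2 unit of no change. They numbered 50 of 221, 33 higher and 17 lower. The same rule took 22.3% of all tested genes, 5884 in number, so the share among stress genes was close to that background. By list, they made up 18 of 36 antioxidant genes, 11 of 34 genes of the unfolded protein and integrated stress response, 7 of 22 hypoxia genes, 6 of 26 p53 targets and 4 of 30 acute phase genes. They were 3 of 28 heat shock genes, 2 of 12 metal genes and 1 of 36 immediate early genes, the nuclear receptor Nr4a2, which fell (-1.86) and was not called in spliced RNA alone (-0.65). With a limit of 0.5 in place of 1 on the interval, 23 genes met the rule, and with pool as a covariate 43, of which 36 were among the 50. In spliced RNA alone 54 met it, of which 34 were among the 50. With the mouse as a block none of the 50 was called in Cell Suspension. In pools 1 and 6 alone 2 were called lower there, Gsr (-0.63) and Ero1l (-0.68), and for 10 of the 50, Srxn1, Gsr, Ugdh and G6pdx among them, each of the 6 Cell Suspension samples that shared a pool with culture was above both others. No count of this separation over all genes was made. The difference in shares between lists was not tested.

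**Figure D4:**
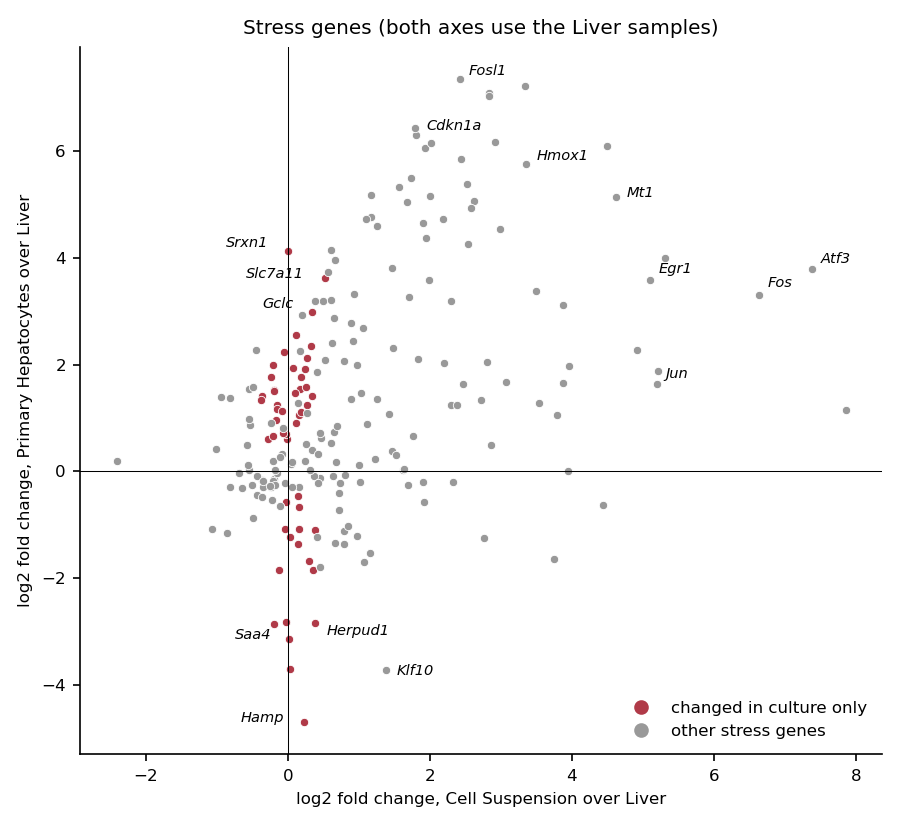
Log2 fold changes over Liver of the 221 stress genes, Cell Suspension on the horizontal and Primary Hepatocytes on the vertical axis, with the 50 genes changed in culture only in red. Both axes use the same Liver samples, so points can move together through them. The red genes lie within 1 unit of 0 on the horizontal axis and reach from -4.70 (Hamp) to 4.14 (Srxn1) on the vertical one.

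Of the 18 antioxidant genes that changed in culture only, 17 rose. Srxn1 (sulfiredoxin, which repairs oxidized peroxiredoxins) lay between 3.38 and 9.34 CPM in Liver (median 6.53), between 2.34 and 11.7 CPM in Cell Suspension (median 7.01) and between 81.1 and 173 CPM in Primary Hepatocytes (median 115). Every cultured sample was above every other sample, the fold change was 4.14 (edgeR adjusted p = 8.8e-16), and that of Cell Suspension over Liver was 0.01 (95% interval -0.46 to 0.47). Cell Suspension held 2.34 and 3.72 CPM in the 2 samples of pools without culture and 4.14 to 11.7 in the other 6, and in pools 1 and 6 alone the fold change was -1.14 and not called. Gclc, the catalytic subunit of the first enzyme of glutathione synthesis, was the most abundant of the list and lay between 92.8 and 499 CPM in Liver (median 349), between 104 and 639.8 CPM in Cell Suspension (median 391) and between 1663 and 3738 CPM in Primary Hepatocytes (median 2198) (2.98 in culture, 0.34 (95% interval -0.24 to 0.93) in Cell Suspension). Slc7a11, the cystine importer, had 3.62, Ugdh, which makes UDP-glucuronate, 2.13, Gsr (glutathione reductase) 2.00, Nqo1 1.77, the ferritin subunit Fth1 1.47, the thioredoxin Txn1 1.42, the autophagy adaptor Sqstm1 1.41 and the peroxidase Prdx1 1.33. Abcc4 (1.92), the pentose phosphate enzymes G6pdx (1.55), Taldo1 (0.72) and Tkt (0.60), Gclm (0.69), Gsta2 (0.67) and the NRF2 repressor Keap1 (0.60) also rose. Nqo1, Gclm, Taldo1, Tkt and Gsta2 overlapped between Liver and culture, and the calls of Gclm (0.39), Tkt (0.28) and Gsta2 (0.12) were lost with pool as a covariate. Within pools 2 and 5 these calls and that of Taldo1 (0.51) were lost. Me1, the malic enzyme, fell (-1.35). Over the whole list 23 of 36 rose and 3 fell in culture (median 1.02), and 8 rose and 2 fell in Cell Suspension. Gsta1, called in both comparisons, rose most in culture (7.10), although reads can be shared with Gsta2. It went from 0, 0.11 and 1.06 CPM (lowest, median, highest) in Liver to 29.1, 41.6 and 58.0 CPM. In pools 1 and 6 alone it had no call in Cell Suspension.

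The promoters of the culture-only genes were searched on both strands for the letters TGANTCA (AP-1) and TGACNNNGC (antioxidant response), which can overlap, in the stretch from 250 bases before to 50 bases after each start in RefSeq, build GRCm38.p6. Of the 50 genes 42 had a promoter in the table. The antioxidant letters were in 14 of 52 promoters of these genes (26.9%), in 8 of 19 promoters of the antioxidant genes among them (42.1%) and in 12.4% of all 32851 promoters. The AP-1 letters were in 8 of 52 (15.4%), 3 of 19 (15.8%) and 7.81%. The letters TGCNCNC (metal response) were in 65.4% against 51% of all promoters. The HNF4A letters CAAAGTCCA were in none of 10 promoters of the genes with the largest fall and in 0.475% of all. A match is a description of the sequence and not a binding site. The 250 bases before the start are shown for 4 rising antioxidant genes, 5′ to 3′ on the strand of the gene, because they hold such matches next to genes whose RNA rose only in culture, and capitals mark the matches.
Srxn1 (chr2:152105274-152105523, plus strand): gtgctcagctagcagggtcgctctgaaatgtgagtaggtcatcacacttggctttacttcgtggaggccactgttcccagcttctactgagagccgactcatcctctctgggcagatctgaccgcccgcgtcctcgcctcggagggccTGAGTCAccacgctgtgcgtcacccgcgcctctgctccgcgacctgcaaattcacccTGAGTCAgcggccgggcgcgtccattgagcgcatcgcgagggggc
Prdx1 (chr4:116685349-116685598, plus strand): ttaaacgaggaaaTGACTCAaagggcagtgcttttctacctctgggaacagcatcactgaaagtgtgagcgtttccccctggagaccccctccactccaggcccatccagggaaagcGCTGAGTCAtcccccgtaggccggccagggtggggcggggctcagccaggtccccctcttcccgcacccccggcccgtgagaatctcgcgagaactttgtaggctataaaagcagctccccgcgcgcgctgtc
Ugdh (chr5:65435843-65436092, minus strand): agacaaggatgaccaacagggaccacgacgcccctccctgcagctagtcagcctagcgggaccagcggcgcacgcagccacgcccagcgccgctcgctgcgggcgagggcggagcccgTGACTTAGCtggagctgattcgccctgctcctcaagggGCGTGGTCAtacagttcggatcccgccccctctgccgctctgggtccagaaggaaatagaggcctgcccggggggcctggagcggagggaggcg
Gclm (chr3:122245307-122245556, plus strand): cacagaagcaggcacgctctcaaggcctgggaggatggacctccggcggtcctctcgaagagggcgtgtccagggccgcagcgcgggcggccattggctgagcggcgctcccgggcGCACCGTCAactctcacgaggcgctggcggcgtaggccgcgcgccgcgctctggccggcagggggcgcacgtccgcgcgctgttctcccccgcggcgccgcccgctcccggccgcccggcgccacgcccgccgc
Both Srxn1 matches shown are of the AP-1 letters, and Srxn1 also held the antioxidant letters outside the bases shown. The Prdx1 match of 9 letters holds both patterns on the reverse strand, and those of Ugdh and Gclm are of the antioxidant letters. The antioxidant letters were also found in the promoters of Me1, Herpud1 and Nr4a2, which fell.

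Of the 11 culture-only genes of the unfolded protein and integrated stress response, 8 fell, most of them genes of protein folding and degradation in the endoplasmic reticulum, and 3 rose. Herpud1, of the degradation of misfolded proteins, lay between 160.0 and 499 CPM in Liver (median 227), between 241 and 642 CPM in Cell Suspension (median 307) and between 23.8 and 47.5 CPM in Primary Hepatocytes (median 36.4) (log2 fold change -2.84, 95% interval -3.27 to -2.42, edgeR adjusted p = 2.5e-12), without overlap between culture and either other type. In Cell Suspension it was above Liver of the same mouse in 8 of 8 mice and not called (0.38, and 0.40 with the mouse as a block). The disulfide isomerase Pdia4 (-1.85), Xbp1, the transcription factor of the IRE1 branch (-1.69), the chaperone genes Hyou1 (-1.10), Dnajb11 (-1.09) and Dnajc3 (-1.07), the ubiquitin ligase Syvn1 (-0.66) and the sensor Atf6 (-0.45) fell less. Syvn1 and Atf6 overlapped between the groups, the call of Hyou1 was lost with pool as a covariate (-0.92), and Atf6 had 0.20 in spliced RNA alone. The 3 that rose were Ddit3, the factor CHOP (12.7, 21.1 and 27.3 CPM in Liver and 29.9, 44.9 and 51.9 CPM in culture as lowest, median and highest, fold change 1.06), Sesn2 (1.76) and Slc7a11. The whole list was divided, with 12 rises and 13 falls in culture (median -0.22), after 13 rises and 1 fall in Cell Suspension. The most abundant gene of the list, Ern1, which encodes the sensor IRE1, rose in Cell Suspension (0.80) and fell in culture (-1.12). The PERK gene Eif2ak3 had 0.19 (95% interval -0.11 to 0.48), and was called higher in cultured cluster 0 alone (0.48) and in spliced RNA alone (0.44).

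The p53 targets that changed in culture only were Bax, which promotes cell death (5.87, 6.65 and 8.39 CPM in Liver and 29.6, 35.9 and 38.9 CPM in culture, fold change 2.35), the RNA-binding protein gene Zmat3 (2.24), Sesn2, the p53 inhibitor Mdm2 (1.12) and Trp53 itself (0.97), which rose, and Ei24 (-0.57), which fell. Without mouse 5, Bax was called higher in Cell Suspension (0.45) and did not meet the rule. Trp53 and Ei24 overlapped between the groups, and the call of Ei24 was lost within pools 2 and 5 (-0.34), on thinned counts (-0.34) and in spliced RNA alone (-0.30). Over the list 16 of 26 rose and 2 fell (median 1.62), Cdkn1a and the death receptor Eda2r (4.74) among the rises. Rrm2b had -0.03 (95% interval -0.27 to 0.22) in culture and was called lower in Cell Suspension (-0.69).

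All 7 hypoxia genes that changed in culture only rose. Without TMM scaling all 7 were lower in cultured hepatocytes than in cultured endothelial nuclei, such as Egln1 (132 and 138 CPM), P4ha1 (215 and 248) and Ero1l (95.1 and 239). The part of endothelial RNA in these rises was not tested. Egln1 and Egln3, the oxygen-sensing hydroxylases that mark HIF for degradation, had 1.95 and 1.59, the collagen hydroxylase P4ha1 1.52, the oxidase gene Ero1l 1.53, the histone demethylase Kdm3a 1.18, Mxi1 1.14 and the mitophagy receptor Bnip3l 0.91. Egln1 lay between 19.3 and 35.8 CPM in Liver (median 25.3) and between 68.7 and 118 CPM in Primary Hepatocytes (median 102), without overlap, whereas Egln3 and, through Liver of mouse 8, P4ha1 overlapped, and the call of Bnip3l was lost with pool as a covariate. Over the list 18 of 22 rose (median 1.77) and 1 fell, Epas1, which encodes HIF-2 alpha (-1.34). Vegfa and Pdk1, widely used HIF targets, were within 0.5 of their Liver level in culture, Pdk1 at 0.03 (95% interval -0.24 to 0.30). Vegfa had risen in Cell Suspension (1.01), with means of 227 CPM in Liver, 458 in Cell Suspension and 199 in culture.

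Of the remaining culture-only genes, the hormone of iron balance, Hamp (hepcidin), lay between 80.6 and 416 CPM in Liver (median 215), between 103 and 507 CPM in Cell Suspension (median 289.9) and between 4.92 and 17.7 CPM in Primary Hepatocytes (median 9.14) (log2 fold change -4.70, 95% interval -5.30 to -4.09, edgeR adjusted p = 4.2e-13). The acute phase genes Saa4 (-3.14) and Crp (-2.81) fell while Saa1 rose, and the adhesion molecule Icam1 rose (2.56). Crp had 312 spliced and 95783 unspliced UMIs in Liver, and its fall was -1.86 in spliced RNA alone. The part of overlapping genes in its unspliced reads was not tested. The manganese exporter Slc30a10 (-3.70) and the iron sensor Tfr2 (-2.86) fell. Among heat shock genes Hsp90ab1 (1.24) and Dnaja4 (1.25) rose and Hsf2 fell by 1.22.

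Genes that stayed unchanged were taken as those whose 95% interval lay within 0.5 log2 units of no change, since a missed threshold does not show a steady level. Among the genes whose mean reached 10 CPM, 1731 met this (19.8% of 8736), of which 1551 were not called and 180 were called with a small change. In Cell Suspension 657 of them were called against Liver. Of the 11871 genes not called in culture, 9837 were under 10 CPM and 483 had intervals beyond the bounds, so most genes that did not pass could not be placed in this set. Among the 10 most abundant were the long noncoding RNA Lncpint (1346, 1600.2 and 2122 CPM in Liver and 1051, 1422 and 1829 CPM in culture as lowest, median and highest, fold change -0.18 (95% interval -0.46 to 0.10)), Ext1, of heparan sulfate synthesis (-0.14 (95% interval -0.42 to 0.15)), Psd3, Zfand3, Rere, Arhgef12, Phldb2, Spag9 and Zcchc7, with fold changes between -0.26 and 0.23 for the last 7. Their TMM-scaled samples overlapped between the groups. The TMM factor of every cultured sample was above that of every Liver sample, so the steady level rests on this scaling. Without it the pooled level of each of the 10 was higher in culture. Lncpint was then at 1472 CPM in Liver and 1897 in culture, and Spag9 at 532.8 and 917.8. Under RLE scaling 1787 genes met the bounds, 1436 of them among the 1731. In spliced RNA alone 7 of the 10 rose, up to 1.00, and none was called in unspliced RNA alone (-0.20 to 0.23). With pool as a covariate Lncpint (-0.45), Zfand3 (-0.39) and Rere (-0.38) were called lower. In cultured cluster 0 alone Psd3 (0.85), Phldb2 (0.48) and Spag9 (0.34) were called higher and Lncpint (-0.41) lower.

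Over all 26425 tested genes 1731 met the bounds, which take only genes of at least 10 CPM (19.8% of 8736 such genes). Of the 221 stress genes 194 reached a mean of 5 CPM in Liver or culture, and how many reached 10 was not counted. Members of the gene lists met the same bounds in 22 cases, 12 of them among the stress genes. They included Zhx2, the integrin gene Itga5 (-0.04 (95% interval -0.34 to 0.27)), the heat shock factor gene Hsf1, the chaperone Hspa4 (0.13 (95% interval -0.06 to 0.32)), the biliverdin reductase Blvrb (0.03 (95% interval -0.29 to 0.35)), the metal sensor Mtf1 (-0.17 (95% interval -0.36 to 0.01)) and the cell cycle inhibitors Cdkn1b and Rb1. Of these, Blvrb (-0.55) and Mtf1 (-0.35) were called lower in Cell Suspension. Hspa4 was called higher under 5 alternatives, with 0.23 under RLE scaling and 0.55 in spliced RNA alone. Cdkn1b was called lower with pool as a covariate (-0.48), and Mtf1 was called lower in unspliced (-0.35) and higher in spliced RNA alone (0.56). Of 29 common reference genes 16 rose and 7 fell (median 0.48). Actb lay between 37.9 and 84.2 CPM in Liver (median 40.8), between 570.0 and 910.3 CPM in Cell Suspension (median 725) and between 334 and 389 CPM in Primary Hepatocytes (median 357), a rise of 2.83 in culture and 3.86 in Cell Suspension. Rab7 rose (0.73) with overlapping samples, a call lost within pools 2 and 5 (0.47), Reep5 rose (1.98), and Ipo8 (-1.10) and Sdha (-0.95) fell. The 4 reference genes within the bounds were Snrpd3 (0.02 (95% interval -0.24 to 0.28), and 0.43 and called in spliced RNA alone), Polr2a, Vcp and Emc7, the last 3 named after their values were seen.

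The samples also differed as wholes. Unspliced UMIs were 74.5% ± 1.47 (SD, n = 8) of the UMIs of Liver hepatocytes and 64.4% ± 1.71 (SD, n = 8) of those of Primary Hepatocytes (two-sided exact permutation test, p = 1.6e-04, the smallest p that 8 against 8 unpaired samples allow, adjusted p = 2.6e-04 over 5 measures). This test did not use the pairing of samples by mouse, and no paired test of the 5 measures was run. Mitochondrially encoded RNA made up 0.153% ± 0.0344 and 0.304% ± 0.0606 (SD, n = 8 each), with the same exact p. At a fixed total of 2042585 UMIs per sample, 18610 ± 558 genes were detected in Liver and 20520.2 ± 424 in Primary Hepatocytes (SD, n = 8 each), again with the same exact p. The 50 most abundant genes of a sample took 19.3% ± 1.72 and 17.6% ± 0.686 of its UMIs (exact adjusted p = 0.0223). The median UMIs per nucleus, 9083 ± 3545 and 6512 ± 1406, could not be told apart at the threshold (exact adjusted p = 0.0811), and the difference of -2572 became -1610 without mouse 3. Single genes moved with this shift or against it. Their shares leave out UMIs of ambiguous state, unlike the shares of whole samples above. Of the spliced and unspliced UMIs of Alb, 76.8% were unspliced in Liver and 43.2% in culture. The fold change of Alb was -0.70 in spliced and -2.38 in unspliced RNA. The shares were 52.3% and 15.3% for Hamp, and 62.0% and 30.9% for Pck1. The share rose instead from 25.6% to 79.3% for Hmga2, from 21.0% to 34.2% for Hsp90aa1 and from 64.4% to 79.9% for Dnajb11. Over the plasma proteins the median was -1.95 in spliced and -2.65 in unspliced RNA, against 0.08 and 0.01 over all 16658 genes tested in both.

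Differences between mice seen in Liver were seen again in Cell Suspension and hardly in culture. Over 3839 genes of at least 50 CPM, the deviations of a sample from its type's mean correlated between Liver and Cell Suspension of the same mouse with r between 0.465 and 0.903 (median 0.777), against a median of -0.0918 for different mice. The 6 mice whose Liver and Cell Suspension samples were in different pools had 0.465 to 0.844. Between Liver and Primary Hepatocytes of the same mouse r was between -0.102 and 0.160 (median 0.0607). These r values run across genes, which are not independent, and describe 8 mice. The bile acid enzyme Cyp7b1, higher in males, was at 4069.5, 12995 and 7874 CPM in Liver of mice 3, 5 and 6 and at 562 to 754 CPM in the other 5. In Cell Suspension the same mice had 5376, 13023 and 7902 CPM and in culture 172, 92.7 and 118 CPM, against 77.0 to 146 in culture of the others. The 2 highest cultured samples of Cyp7b1 and of Keg1, those of mice 3 and 8, were in the pool that held Liver of mouse 5. Keg1 was highest in the same 3 mice. In mouse 8, P4ha1 was at 180.1 CPM in Liver and 144 in Cell Suspension, where the next highest mouse had 46.9 and 41.6, and at 140.5 in culture, inside the range of the others. Tsc22d3 was at 605 and 459.7 CPM in this mouse and at 41.1 in culture, and Herpud1 at 499, 642 and 33.6. Xbp1 was highest in mouse 5 in Liver (218 CPM). Why these mice stood apart was not tested.

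**Figure D5:**
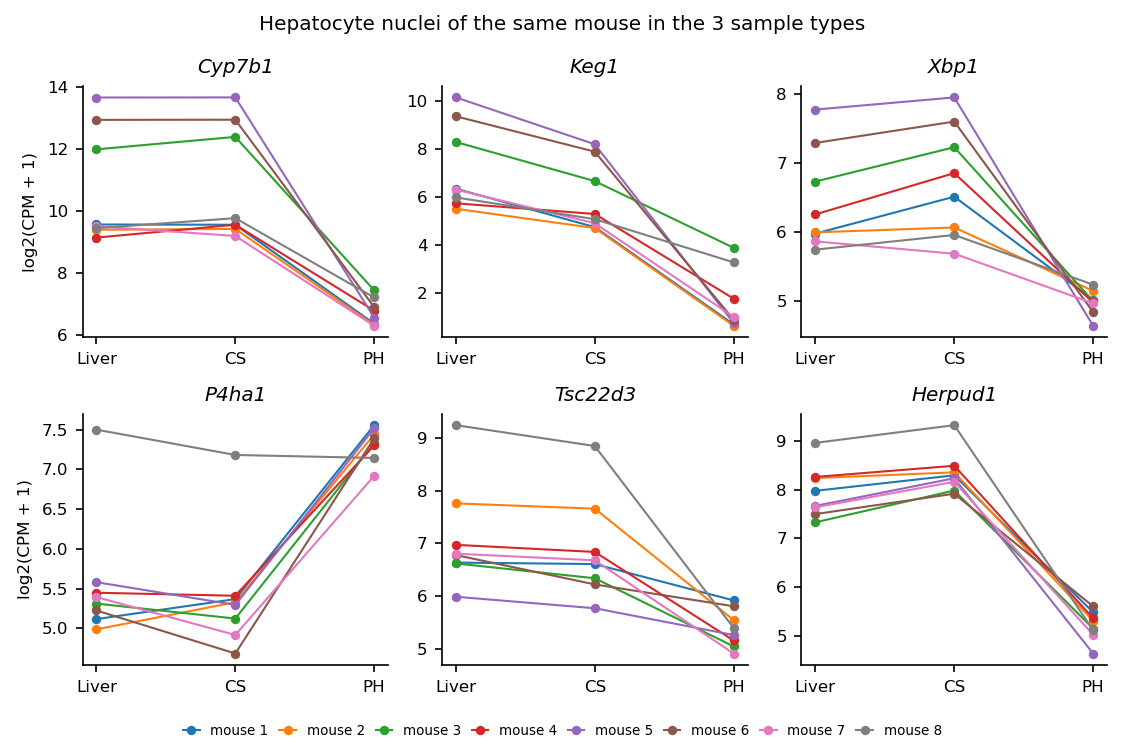
Levels of 6 genes as log2(CPM + 1) in hepatocyte nuclei of the 3 sample types (CS, Cell Suspension; PH, Primary Hepatocytes), with 1 line per mouse. The lines of mice 3, 5 and 6 (Cyp7b1, Keg1) and of mouse 8 (P4ha1, Tsc22d3, Herpud1) stand above the others in Liver and Cell Suspension and come together with them in Primary Hepatocytes, where Keg1 keeps 2 lines apart, of mice 3 and 8, at 13.6 and 8.61 CPM.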

How the data were processed

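The authors converted reads with bcl2fastq 2.19.0, assigned them with Salmon Alevin and Alevin-fry to spliced and unspliced transcripts of GRCm38, and called nuclei, hashtags, doublets and clusters with DropletUtils, mclust, scDblFinder and Seurat. Raw UMI counts per gene and droplet were deposited as spliced, unspliced and ambiguous, and the 3 were added here, and the deposited annotation gives each nucleus its hashtag, cell type and cluster. The deposited hashtag counts were not used. The hashtag CD2 was read as Cell Suspension of mouse 2, because that sample had no other hashtag.

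Counts were summed over the chosen nuclei of each of 24 samples. Cluster 19 in Liver (995 nuclei, median 1502 UMIs) and cluster 8 in culture (1450, median 2565) were left out by the choice of nuclei. Genes with at least 10 counts in all (26425 of 32285, of which 32158 have a symbol) were fitted with edgeR 4.0.16 in R 4.3.3. The fit used all 24 samples, TMM factors (0.74 to 1.50), a quasi-likelihood test and sample type as the only term. The p-values were adjusted by Benjamini-Hochberg over all tested genes at 0.05. Intervals are 95% intervals of this fit. Sample measures were compared by exact permutation of unpaired samples in Python 3.11.15 with scipy 1.17.1. The procedure was tested on simulated counts. The gene lists and the chosen nuclei were set with earlier results of these data known. Named genes were the 10 largest rises and falls of at least 50 CPM without overlap, per list the most abundant member, the 2 called rises and 2 called falls that were largest (at least 5 CPM) and the steadiest member, the 10 most abundant unchanged genes, 18 classical genes, and all stress genes changed in culture only. Cyp7b1, Reln and the genes compared between mice were named after their values were seen. For Aldoa and Ddit3, which stand for more than 1 ID, the ID with more UMIs was used, and 3 list symbols (C5, Cyp2c44, Rn18s) had no row. A few genes that the rule takes are not reported here. Members of the Mup, Cyp2c, Cyp3a, Gsta, Saa and Hspa1 families can share reads.

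Liver, Cell Suspension and Primary Hepatocytes of the same number came from the same animal per the study's methods, so the numbers pair the samples. Deviations of same-numbered samples correlated with a median r of 0.777 between Liver and Cell Suspension and of 0.0607 between Liver and Primary Hepatocytes over 3839 genes. Sample type and pool were largely confounded, since pools 1 and 6 held no culture and pools 3 and 4 no Liver. Alternatives were DESeq2 1.42.0, RLE scaling, pool or mouse as a term, other filters on genes, nuclei and clusters, thinned counts, pools 1 and 6 alone (added after the data were seen), and spliced or unspliced counts alone. Promoters are from RefSeq.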

Additional observations from a re-analysis of the deposited data

Results flagged for a closer look

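In 53 of 543 groups of 8 samples, over 44 named genes, the highest or lowest sample stood apart from the others by Dixon's criterion, which chance meets in about 1 of 20 groups. Of these, 10 were in Liver and 9 in Cell Suspension of mouse 8. All values are CPM.

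Liver of mouse 8 was highest for the chaperones Hspa4 (182.4), Hsp90aa1 (36.01) and Hsp90ab1 (122.7), for Herpud1 (498.7) and Dnajc3 (187.7) of the endoplasmic reticulum, for Mtf1 (59.6), Tsc22d3 (605), Slc7a2 (9313), Hnf4a (614.5) and P4ha1 (180.1). Cell Suspension of mouse 8 was highest for Herpud1 (642.3), Pdia4 (72.22), Hspa5 (1738), Dnajc3 (185.3), Hyou1 (106.5), Syvn1 (62), Hsp90ab1 (166), Tsc22d3 (459.7) and P4ha1 (144.2). Herpud1, Dnajc3, Hsp90ab1, Tsc22d3 and P4ha1 thus stood apart in both the Liver and the Cell Suspension sample of this mouse, which were in different pools, and in none of its cultured nuclei.

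In Cell Suspension of mouse 4 the highest values were those of Nr0b2 (237.5), Nr4a2 (23.09), Blvrb (76.34), Sdha (114.4), Keap1 (33.09) and Ugdh (370.2). In Liver of mouse 5 they were those of Pkm (4.931), Sox4 (0.8007), Ccl2 (0.6743), Ipo8 (167.2) and Txn1 (57.95). Cell Suspension of mouse 1 stood apart for Tagln2 (2.177), Vldlr (7.217), Trp53inp1 (806.2) and Lcn2 (51.9). Mouse 3 stood apart in both Liver and Cell Suspension for Tfr2 (381.8 and 311.1) and Sqstm1 (278.6 and 353.2), in Liver for Mlxipl, which was lowest (699.2), and in Cell Suspension for Cxcl12 (410.2).

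Single samples were highest for Cyp7a1 (348.1, Cell Suspension of mouse 6), Snrpd3 (32.67, Cell Suspension of mouse 5), Itga3 (9.784, Liver of mouse 7), Hspa1a (0.6341) and Nqo1 (6.5, both Liver of mouse 2), and Ugdh (252.9, Liver of mouse 4). The lowest Taldo1 value (9.564) was in Cell Suspension of mouse 7. Among cultured samples, Cyp2c54 was highest in mouse 3 (3.995), Slc30a10 (8.362) and Hspa1a (10.27) were highest in mouse 6, and the lowest values of Hgd (13.18, mouse 7), Zmat3 (39.66, mouse 6) and Bax (29.64, mouse 2) stood apart.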

How the results depend on the processing

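The 181 named genes and 4 counts of genes were followed under the alternatives that allowed it. Pools 2 and 5 alone gave only the count for culture, pools 1 and 6 alone only that for Cell Suspension and no value of a named gene for culture, and 174 named genes could be tested in unspliced RNA alone and 180 under the edgeR filter. For Primary Hepatocytes against Liver, 14562 genes were called with mouse as a replicate block and 13803 to 14166 without 1 mouse. For Cell Suspension against Liver the counts were 6319 with the block and 4957 to 5446 without 1 mouse, for unchanged genes 1877 and 1539 to 1694, and for culture-only stress genes 53 (49 shared with the 50) and 49 to 53. The block changed the call of 1 named gene for culture, Rere (-0.26, called lower), and of 11 for Cell Suspension, where Keg1, Mup9, Haao, Bdh1 (-0.47), Slc2a2 (-0.45), Fas (-0.50) and Rab7 (-0.36) were called lower and Sox4 (1.64), Cp (0.94), Slc39a14 (0.43) and Uroc1 (0.40) higher. Thinning every sample to the smallest total left 3325 calls for Cell Suspension, where fewer genes were tested. In pools 1 and 6 alone, a choice made after the data were seen, 1651 genes were called for Cell Suspension, with 8 samples left. Asking in addition for a log2 fold change beyond 1 left 9108 calls for culture. Bounds of 0.25 and 1 gave 177 and 4362 unchanged genes, and with pool as a covariate there were 1113, of which 847 were among the 1731, and the cause was not tested. In spliced RNA alone 595 of 1258 unchanged genes were among the 1731, and in unspliced RNA alone 1221 of 1500. A bound of 0.5 on Cell Suspension left 23 culture-only stress genes. Pool as a covariate gave 12768 calls for culture and moved the median of all genes from 0.07 to 0.22, and RLE scaling and DESeq2 moved it to 0.17. The share of higher genes among those called for Cell Suspension was 36.8%, 49.3% with DESeq2 and 47.7% with RLE scaling.

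Among genes called in either of the fits compared, those that turned in sign were Hspa1a in cluster 0 alone (-0.026) and, in spliced RNA alone, Zhx2 (0.15), Yap1 (0.12), Slc39a14 (0.41), Mtf1 (0.56), Lncpint (0.54), Ext1 (0.74), Zfand3 (0.62) and Atf6 (0.20). Pools 2 and 5 alone kept the call of 170 named genes and weakened 11, and pool as a covariate weakened 13 and added 4. Cultured cluster 0 alone weakened 5, among them Gclm (0.28) and Fas (-0.22), and added 6. Unspliced RNA alone lost Saa1 (1.92), Apoa4 (0.30), Cdk2 (-0.62) and Syvn1 (-0.14), spliced RNA alone added Pdk1 (0.30), and pools 2 and 5 lost Yap1 (-0.26). Leaving out 1 mouse changed the call of Zhx2 (-0.25 to -0.17 without mice 1, 2, 4 or 6), Spag9 (0.28 without mouse 4 or 5), Rere (-0.30 without mouse 5) and Hspa1a (1.37 without mouse 6). Of the genes not called in culture, 9837 lay under 10 CPM, where depth limits what can be seen.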

Other observations

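Spliced and unspliced RNA could be tested apart for 16658 genes. Of these, 8026 were called between Primary Hepatocytes and Liver in both, and 354 of them in opposite directions, 226 with spliced RNA higher and unspliced RNA lower in culture. Among the 234 of at least 10 CPM, examples chosen after their values were seen were Trim28, a transcriptional corepressor (log2 fold change 0.50 in spliced and -4.72 in unspliced RNA), Camk2b, a calcium-dependent kinase (1.44 and -1.06), Sik1, a salt-inducible kinase (1.19 and -1.11), and, the other way, Ddx5, an RNA helicase (-1.41 and 1.17). Unspliced reads of a gene can also come from overlapping genes, and their part in these values was not tested. The share of genes whose unspliced RNA moved lower than their spliced RNA was 60.3% over all genes tested in both, and over the 26 lists it ran from 42.9% (15 of 35 antioxidant genes) and 52.8% (cytoskeleton and adhesion) to 90.9% (metal genes) and 91.3% (fatty acid oxidation), with 90% for hypoxia genes and 89.7% for plasma proteins (26 of 29).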
